A study of Mus musculus with 13 samples.

Results

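Genes of fatty acid synthesis and of sebum lipid assembly were examined in ribosome-depleted total RNA from mouse tails with lymphedema, a swelling that follows failed lymphatic drainage. The set was a fixed list of 32 mouse gene symbols, and all 32 had a row among the 55357 genes of the count table. Of these, 31 passed the low-count filter and were tested, and Mogat1 did not pass. The groups were TNTSham with 7 samples and TNTProx1 with 6, from mice of 12 weeks whose tails were taken on day 28 after TNT. TNT was read as tissue nanotransfection, which moves nucleic acids into skin with a brief electric field, and Prox1 encodes the transcription factor of lymphatic endothelial identity. Strain, the cargo of the sham group and the way lymphedema was produced are not stated in the labels. Samples are named by group and a number given in accession order. Whether each sample is its own animal is not stated, and p-values measure only the spread between these samples, which may be technical.

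Fatty acid synthesis starts in the cytosol. Citrate is cut to acetyl-CoA, which is carboxylated to malonyl-CoA and built by fatty acid synthase into palmitate, and desaturases and elongases then shape the chain. Sebaceous glands are holocrine glands of the hair follicle whose cells fill with lipid and burst, and in mice their sebum is rich in wax esters and sterol esters as well as triglycerides. Keratinocytes of the upper epidermis draw on part of the same machinery to make the very long chain ceramides of the skin barrier. The list was divided by role into 9 genes of general fatty acid synthesis, 7 of wax and sterol ester formation, 5 other desaturases, 5 other elongases, 3 of ceramide synthesis and 3 of lipid handling.

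Promoter windows are shown for 4 members. Fasn was taken as the core synthase and Awat1 as a wax ester gene. Fads2 and Elovl5 were taken as 2 of the 3 members with the smallest p-values. Each window runs from 250 bases before to 50 bases after a RefSeq start site in GRCm38.p6, an older build than that of the counts. Fasn lies at chr11:120824498-120824797 (minus strand), Fads2 at chr19:10101454-10101753 (minus strand), Elovl5 at chr9:77917115-77917414 (plus strand) and Awat1 at chrX:100571997-100572296 (plus strand). Capitals mark the CCAAT box (CCAAT or its reverse complement, on either strand, overlapping matches included) and the E-box (CACGTG).
Fasn: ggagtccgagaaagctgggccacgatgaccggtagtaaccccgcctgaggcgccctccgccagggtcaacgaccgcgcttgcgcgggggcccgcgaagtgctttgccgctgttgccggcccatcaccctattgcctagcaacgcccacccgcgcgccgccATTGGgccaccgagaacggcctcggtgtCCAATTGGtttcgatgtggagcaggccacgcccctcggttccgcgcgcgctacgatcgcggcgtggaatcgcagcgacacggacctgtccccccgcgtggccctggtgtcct
Fads2: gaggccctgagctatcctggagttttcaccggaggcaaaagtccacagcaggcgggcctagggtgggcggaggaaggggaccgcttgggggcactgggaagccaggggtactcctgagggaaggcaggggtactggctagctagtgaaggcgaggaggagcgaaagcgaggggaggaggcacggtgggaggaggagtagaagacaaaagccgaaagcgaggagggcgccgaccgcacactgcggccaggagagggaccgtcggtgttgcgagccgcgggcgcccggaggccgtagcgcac
Elovl5: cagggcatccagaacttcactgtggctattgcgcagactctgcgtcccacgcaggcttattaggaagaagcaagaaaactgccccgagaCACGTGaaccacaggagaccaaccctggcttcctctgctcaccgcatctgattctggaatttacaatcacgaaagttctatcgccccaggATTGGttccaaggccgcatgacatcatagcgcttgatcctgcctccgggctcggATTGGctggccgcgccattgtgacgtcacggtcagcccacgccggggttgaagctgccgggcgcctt
Awat1: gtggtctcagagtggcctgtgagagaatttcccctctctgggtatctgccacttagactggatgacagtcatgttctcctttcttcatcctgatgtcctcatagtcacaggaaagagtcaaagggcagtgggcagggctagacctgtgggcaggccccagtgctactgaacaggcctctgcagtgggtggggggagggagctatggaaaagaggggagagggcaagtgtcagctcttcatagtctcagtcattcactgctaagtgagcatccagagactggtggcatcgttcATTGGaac
RefSeq gave a window for 25 of the 32 members, in 31 windows. A CCAAT box lay in 17 of these 31 windows, against 37.4% of all 32851 windows of the same length. Fasn and Elovl5 held more than one and Awat1 a single one, within the first transcribed bases, while the Fads2 window held none. The E-box lay in 3 of the 31 member windows, those of Elovl4, Elovl5 and Plin2, against 7.2% of all windows. The nuclear receptor half-site AGGTCA (both strands) lay in 7 of the 31 member windows, against 16.3% of all windows. A sterol response element, searched as 1 fixed sequence on both strands, was in 0 member windows and in 0.1% of all windows. A sequence this rare would seldom fall in 31 windows, and near matches were not counted, so the 0 gives no result about the members. These matches describe the letters and not a bound site.

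Levels are given in CPM, a gene's count relative to the size of its library after TMM scaling (trimmed mean of M values). Libraries held 29.69M to 48.01M counts, and the members took 0.530 to 0.920% of a library. The libraries TNTProx1 4, 5 and 6 stood apart in composition. The nuclear RNA Malat1 was at 3410 to 3539 CPM there and at 8979 to 16810 CPM in the other 10 libraries. Counts on TEC genes, provisional and often unspliced models, took 0.136 to 0.193% there and 0.378 to 0.745% elsewhere. Fold changes were therefore also computed from 10 libraries, with TNTProx1 4 to 6 left out, and the plot of fold changes shows both values for every tested member. Xist was at 2095 CPM in TNTSham 1 and at most 2.01 CPM in the other 12.

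Sebocyte markers were present in these tails. All 10 of the sebocyte list (Pparg, Mc5r, Krt79, Awat1, Awat2, Mgst1, Scd1, Elovl3, Dgat2l6 and Acsbg1, of which 5 are also members) passed the filter, with a summed level of 2130 to 3833 CPM in TNTSham and 1726 to 3176 CPM in TNTProx1. Scd1 makes up most of these sums, at 1523 to 2741 CPM in TNTSham and 1260 to 2587 CPM in TNTProx1. In TNTProx1 2 Scd1 was at 2587 CPM, while the mean log2 level of the 10 markers was -0.65 against the TNTSham mean. The 10 adipocyte markers summed to 232.0 to 568.4 CPM in TNTSham and 253 to 497 CPM in TNTProx1. Their mean log2 level against the TNTSham mean was 0.42 in TNTProx1 2. It was 0.69 in TNTSham 2, where Scd1 was highest, and -0.57 in TNTProx1 1, where Scd1 was lowest. In TNTSham 1 it was 0.28, with Scd1 at 1772 CPM. The part of fat cells in the level of Scd1 was not tested. Ucp1, the defining gene of brown fat, was at 0.117 ± 0.0549 CPM in the 7 TNTSham libraries and at 0.0210 ± 0.0247 CPM in the 6 TNTProx1 libraries (mean ± SD). Per kilobase of exon, the TNTSham mean was highest for Scd1 at 423 CPM per kb, followed by Elovl4 at 296, Fabp5 at 206, Elovl6 at 87.9 and Scd2 at 77.3 CPM per kb. Fa2h was at 57.3, Far2 at 35.8, Awat1 at 29.2, Fasn at 26.9 and Awat2 at 1.69 CPM per kb.

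No member passed the test between TNTProx1 and TNTSham. The edgeR quasi-likelihood test called 0 of 31 members at an adjusted p under 0.05, and it called 0% of all 22876 genes (12.2% had an unadjusted p under 0.05). DESeq2 also called 0 members, against 3.62% of the genes it gave an adjusted p. Limma voom with quality weights called 2, Fads2 higher and Elovl7 lower, against 2.5% of all genes. A fit with the TEC share as covariate, added after the data were seen, called 4 lower, Me1, Dgat2, Elovl4 and Elovl7, against 2.38%. Adjusted p-values of the members ran from 0.179 to 0.997. Fold changes below are TNTProx1 over TNTSham on the log2 scale. There were 9 members higher and 22 lower, with a median of -0.06. Over all genes 47.7% were higher and 52.3% lower, with a median of -0.017. At an unadjusted p under 0.05 there were 3 members higher, against 8.33% of all genes, and 0 lower, against 3.92%. The 3 were Fads1, Fads2 and Elovl5, whose products all act in making long polyunsaturated fatty acids. For 31 members this count is near the share over all genes, and it gives no result about that route. For 0 members did all 6 TNTProx1 libraries lie outside the TNTSham range, on either side (0.214% of all genes lay below and 0.398% above).

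**Figure D1:**
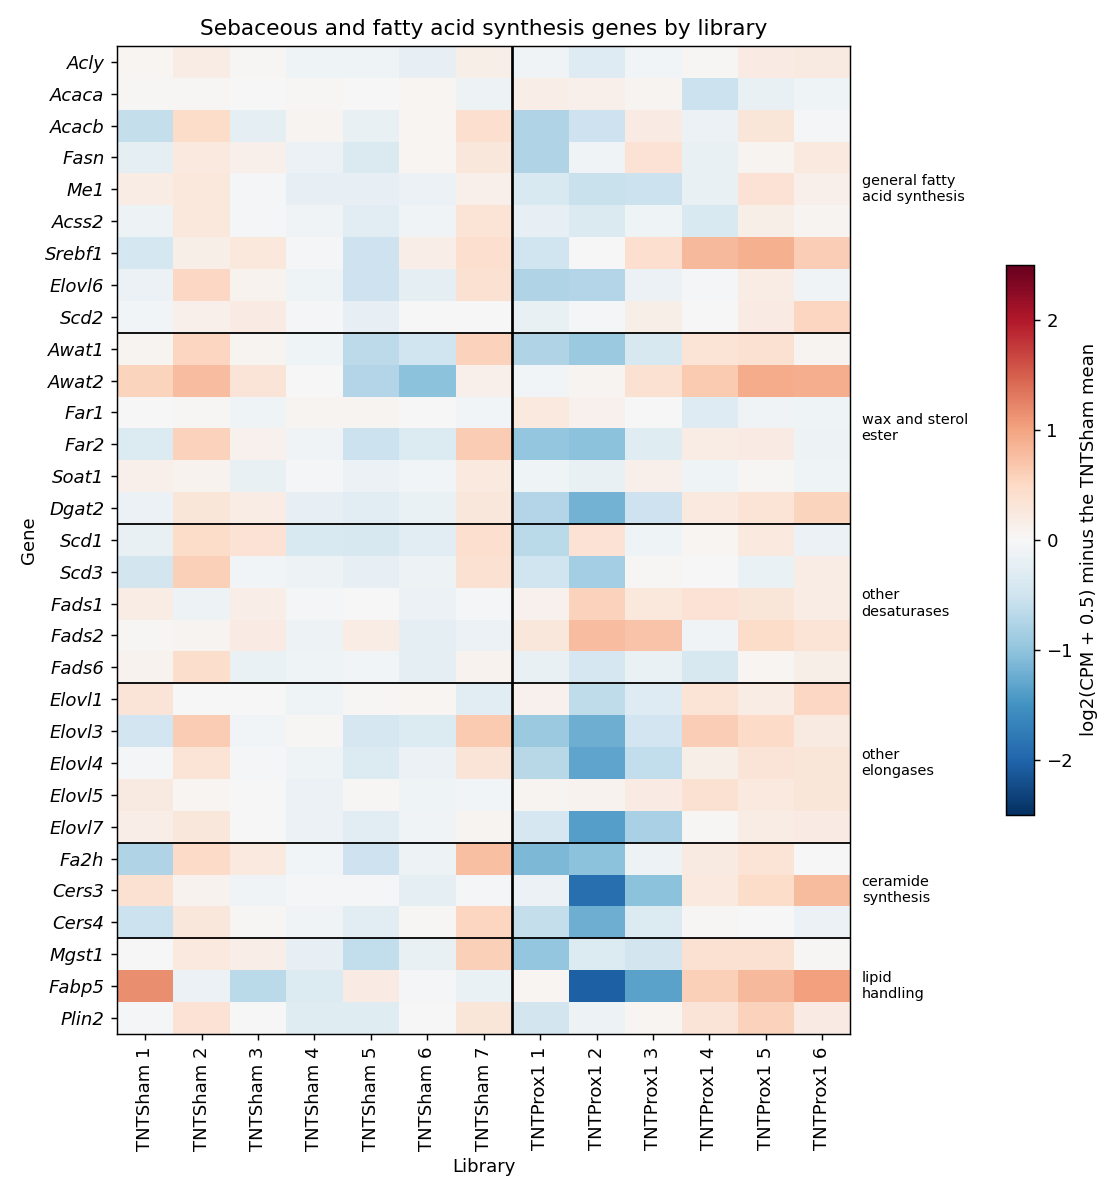
Heat map of the 31 tested members (rows, grouped by role) in the 13 libraries (columns). Colour is log2(CPM + 0.5) minus the gene's TNTSham mean, red for higher and blue for lower. Most elongase and ceramide rows, and Awat1, Far2 and Dgat2, are blue in TNTProx1 1 to 3 and white to red in most of TNTProx1 4 to 6, while Fads1 is red in all TNTProx1 libraries and Fads2 in 5 of 6.

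General fatty acid synthesis genes did not separate the groups. Of the 9, 2 were higher and 7 lower, at a median of -0.059, and 0 reached an unadjusted p under 0.05. Fasn, the synthase itself, ranged from 227 to 356 CPM in TNTSham (median 302) and from 173 to 374 CPM in TNTProx1 (median 290). The groups overlapped, and TNTProx1 held both the lowest library (TNTProx1 1) and the highest (TNTProx1 3). The log2 fold change was -0.034 ± 0.17 (SE; adjusted p = 0.950 by edgeR), with a 95% interval from -0.39 to 0.32, and 0.077 without TNTProx1 1.

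Acly, which makes cytosolic acetyl-CoA from citrate, ranged from 178 to 235 CPM in TNTSham (median 209) and from 163 to 239 CPM in TNTProx1 (median 202). TNTProx1 differed from TNTSham by -0.001 ± 0.10 in log2 (SE; adjusted p = 0.997 by edgeR), with a 95% interval from -0.23 to 0.22. Acss2, which makes acetyl-CoA from acetate, ranged from 14.4 to 22.2 CPM (median 16.5) and from 13.2 to 19.4 CPM (median 15.7) in the same order. Of the 6 TNTProx1 libraries 1 was below and 2 were above TNTSham for Acly, and 2 were below it for Acss2. With 10 libraries Acly was at -0.17 and Acss2 at -0.24.

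Acaca, the acetyl-CoA carboxylase of lipid synthesis, was among the steadiest members in TNTSham, at 116 to 131 CPM (median 130). It was at 133 to 143 CPM in TNTProx1 1 to 3, all above that range, and at 87.3 to 118 CPM in TNTProx1 4 to 6. Of the latter, TNTProx1 4 and 5 were below TNTSham and TNTProx1 6 within it. The log2 fold change was -0.059 over 13 libraries and 0.12 over 10. Acacb, the carboxylase linked to control of fatty acid oxidation, ranged from 56.7 to 119 CPM in TNTSham (median 89.6) and from 50.8 to 106 CPM in TNTProx1 (median 81.4).

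Me1, the malic enzyme that supplies NADPH, ranged from 101 to 139 CPM in TNTSham (median 115). It was at 78.4 to 89.1 CPM in TNTProx1 1 to 3, all below TNTSham, and at 103 to 150 CPM in TNTProx1 4 to 6. In log2 the difference was -0.17 ± 0.15 over 13 libraries and -0.51 ± 0.12 over 10 (SE; adjusted p = 0.698 and 0.0708 by edgeR), and the adjusted p ran from 0.0468 to 0.881 over all alternatives. Elovl6, which lengthens palmitate to stearate, ranged from 385 to 792 CPM in TNTSham (median 514) and from 326 to 622 CPM in TNTProx1 (median 508). TNTProx1 1 and 2 were below its TNTSham range, and its log2 difference was -0.26 ± 0.19 over 13 libraries and -0.56 ± 0.22 over 10 (SE).

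Srebf1 encodes the transcription factor that drives this pathway. It ranged from 40.8 to 79.1 CPM in TNTSham (median 64.9) and from 41.6 to 109 CPM in TNTProx1 (median 84.6), and 4 of 6 TNTProx1 libraries lay above TNTSham. TNTProx1 4 to 6 held the 3 highest levels, 90.02 to 109 CPM. The difference was 0.42 ± 0.21 in log2 (SE; adjusted p = 0.457 by edgeR), with a 95% interval from -0.043 to 0.87, and -0.008 ± 0.22 with 10 libraries. Scd2, a stearoyl-CoA desaturase of many tissues, ranged from 365 to 484 CPM in TNTSham (median 416) and from 371 to 614 CPM in TNTProx1 (median 445), where only TNTProx1 5 and 6 lay above TNTSham.

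Wax and sterol ester genes showed a like balance, with 1 of 6 tested members higher and 5 lower at a median of -0.08. None of the 6 reached an unadjusted p under 0.05. Awat1, an acyl-CoA wax alcohol acyltransferase, ranged from 24.6 to 57.7 CPM in TNTSham (median 40.7). It was at 20.1 to 29.1 CPM in TNTProx1 1 to 3 and at 40.8 to 50.6 CPM in TNTProx1 4 to 6, so the groups overlapped. Awat1 had a fold change of -0.20 ± 0.25 in log2 (SE; adjusted p = 0.784 by edgeR), with a 95% interval from -0.74 to 0.35, and of -0.76 ± 0.26 with 10 libraries.

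Awat2, the related wax synthase, was far less abundant, at 1.34 to 5.88 CPM in TNTSham (median 3.60) and 3.11 to 6.63 CPM in TNTProx1 (median 4.90). It was the member of this role with the positive value, 0.46 ± 0.32, with a 95% interval from -0.23 to 1.14, and 0.022 ± 0.38 with 10 libraries (SE). Both Awat genes lie on chromosome X.

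Far1 and Far2 are the reductases that make the fatty alcohols of wax esters, Far1 broadly and Far2 in sebaceous tissue. Far2 ranged from 171 to 390 CPM in TNTSham (median 234), where TNTSham 2 and 7 were the highest. It was at 122 to 204 CPM in TNTProx1 1 to 3 and at 229 to 287 CPM in TNTProx1 4 to 6. The fold change of Far2 in log2 was -0.33 ± 0.25 over 13 libraries (SE; adjusted p = 0.640 by edgeR) and -0.80 ± 0.28 over 10. Far1 was the opposite within TNTProx1, at 115 to 137 CPM in TNTProx1 1 to 3 and 92.6 to 108 CPM in TNTProx1 4 to 6, with a TNTSham range of 108 to 121 CPM (median 117).

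Soat1, which esterifies cholesterol, ranged from 127 to 170 CPM in TNTSham (median 140) and from 126 to 157 CPM in TNTProx1 (median 134). Soat1 differed by -0.06 in log2, with a 95% interval from -0.25 to 0.13, and by -0.061 with 10 libraries. Dgat2, which completes triglycerides, ranged from 71.5 to 107 CPM in TNTSham (median 79.2). It was at 38.2 to 61.1 CPM in TNTProx1 1 to 3, all below TNTSham, and at 103 to 129 CPM in TNTProx1 4 to 6. This gave -0.099 ± 0.24 in log2 over 13 libraries and -0.81 ± 0.18 over 10 (SE; adjusted p = 0.892 and 0.0685 by edgeR), with an adjusted p from 0.0286 to 0.997 over all alternatives. Mogat1, a monoacylglycerol acyltransferase, had 0 to 7 counts per library and was not tested.

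**Figure D2:**
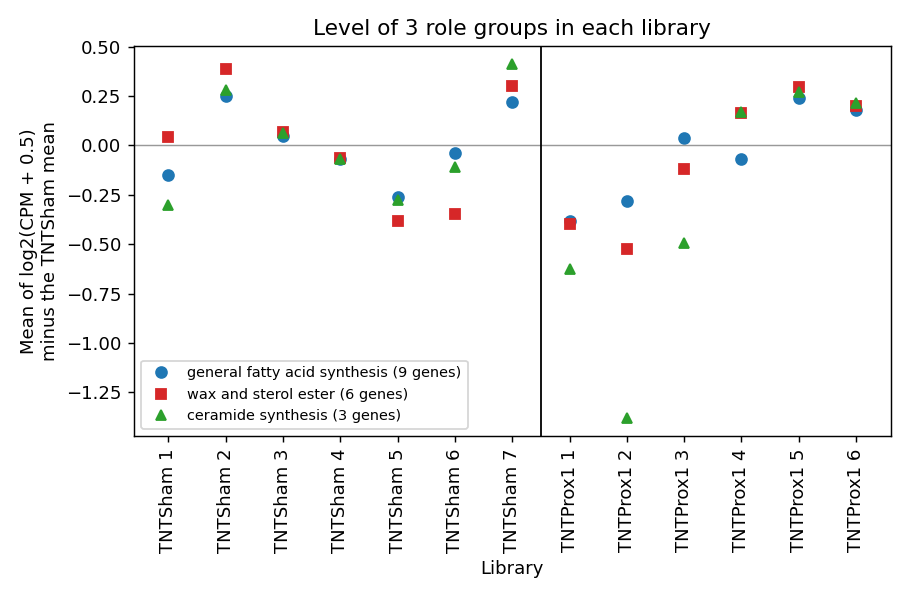
Mean of log2(CPM + 0.5) minus the TNTSham mean, averaged over the genes of a role (y axis), in each of the 13 libraries (x axis; the line parts TNTSham from TNTProx1). Blue circles are the 9 general synthesis genes, red squares the 6 tested wax and sterol ester genes and green triangles the 3 ceramide genes; TNTProx1 2 is lowest for the last 2 roles, at -0.53 and -1.38.

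General synthesis and wax ester genes were set side by side in each library. The mean log2 level of the general genes, set against the TNTSham mean, lay between -0.26 and 0.25 in TNTSham and was -0.38, -0.28, 0.036, -0.07, 0.24 and 0.18 in TNTProx1 1 to 6. That of the wax and sterol ester genes lay between -0.38 and 0.39 in TNTSham and was -0.40, -0.53, -0.12, 0.17, 0.30 and 0.20. Their difference, wax minus general, ranged from -0.31 to 0.19 in TNTSham and from -0.25 to 0.24 in TNTProx1. The balance between the 2 roles thus overlapped between the groups. Within TNTProx1 it was -0.014, -0.247 and -0.155 in TNTProx1 1 to 3, and 0.235, 0.057 and 0.022 in TNTProx1 4 to 6. The 2 means had opposite signs in TNTSham 1 and in TNTProx1 3 and 4. With 10 libraries the median fold change was -0.17 for the general genes and -0.41 for the wax and sterol ester genes, with -0.001 over all genes. Within the wax list, Awat1, Far2 and Dgat2 were at -0.76 to -0.81 in that fit, while Awat2, Far1 and Soat1 were at -0.061 to 0.11.

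The other desaturases split into those that make monounsaturated and those that make polyunsaturated fatty acids. Scd1, the stearoyl-CoA desaturase abundant in sebaceous glands, ranged from 1523 to 2741 CPM in TNTSham (median 1772) and from 1260 to 2587 CPM in TNTProx1 (median 1961). The log2 difference was -0.053 ± 0.20 (SE; adjusted p = 0.934 by edgeR), with a 95% interval from -0.48 to 0.37. Scd3, a close relative, ranged from 71.9 to 149 CPM (median 90.8) and from 54.8 to 113 CPM (median 93.0) in the same order. In TNTProx1 2 the 2 genes parted, with Scd1 at its TNTProx1 maximum and Scd3 at its TNTProx1 minimum. Scd1, Scd2 and Scd3 are similar in sequence and neighbours on chromosome 19, so how reads common to them were divided is uncertain.

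Fads1, the delta-5 desaturase of polyunsaturated fatty acids, had the smallest p of all members. In TNTSham 1 to 7 it was at 63.4, 51.2, 62.7, 55.0, 55.5, 50.7 and 54.9 CPM, and in TNTProx1 1 to 6 at 60.5, 83.6, 67.0, 71.9, 69.2 and 63.4 CPM. Of the TNTProx1 libraries 5 of 6 lay above TNTSham, TNTProx1 6 by a small margin (63.44 against a TNTSham maximum of 63.42 CPM), and TNTProx1 1 lay within it. The log2 difference was 0.30 ± 0.091 (SE; adjusted p = 0.179 by edgeR) and 0.32 ± 0.11 with 10 libraries, and over all alternatives the adjusted p ran from 0.0667 to 0.379.

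Fads2, the delta-6 desaturase that opens the same route, stood at 24.3, 25.1, 27.4, 21.7, 27.2, 20.2 and 21.5 CPM in TNTSham 1 to 7. It was at 28.9, 41.1, 39.5, 22.3, 32.9 and 30.04 CPM in TNTProx1 1 to 6. Here too 5 of 6 TNTProx1 libraries lay above TNTSham, and TNTProx1 4 lay within it. For Fads2 the log2 fold change was 0.44 ± 0.14 (SE; adjusted p = 0.183 by edgeR) and 0.61 ± 0.13 with 10 libraries, and over all alternatives the adjusted p ran from 0.0340 to 0.361. Fads6, a desaturase of less settled function, ranged from 7.56 to 12.5 CPM in TNTSham (median 8.64) and from 6.71 to 10.2 CPM in TNTProx1 (median 7.998).

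Elovl5, the elongase that works between the Fads2 and Fads1 steps, ranged from 61.4 to 79.9 CPM in TNTSham (median 68.0) and from 71.3 to 88.6 CPM in TNTProx1 (median 79.7). TNTProx1 4, 5 and 6 were above TNTSham and TNTProx1 1 to 3 within it. In log2 this was 0.22 ± 0.083 (SE; adjusted p = 0.293 by edgeR) and 0.12 ± 0.093 with 10 libraries, and over all alternatives the adjusted p ran from 0.121 to 0.504. TNTProx1 5 and 6 lay above the TNTSham range for each of Fads1, Fads2 and Elovl5. The highest levels of Fads2 were in TNTProx1 2 and 3, and those of Elovl5 in TNTProx1 4 to 6. Of their promoter windows shown above, that of Elovl5 holds CCAAT boxes and an E-box, and that of Fads2 neither.

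**Figure D3:**
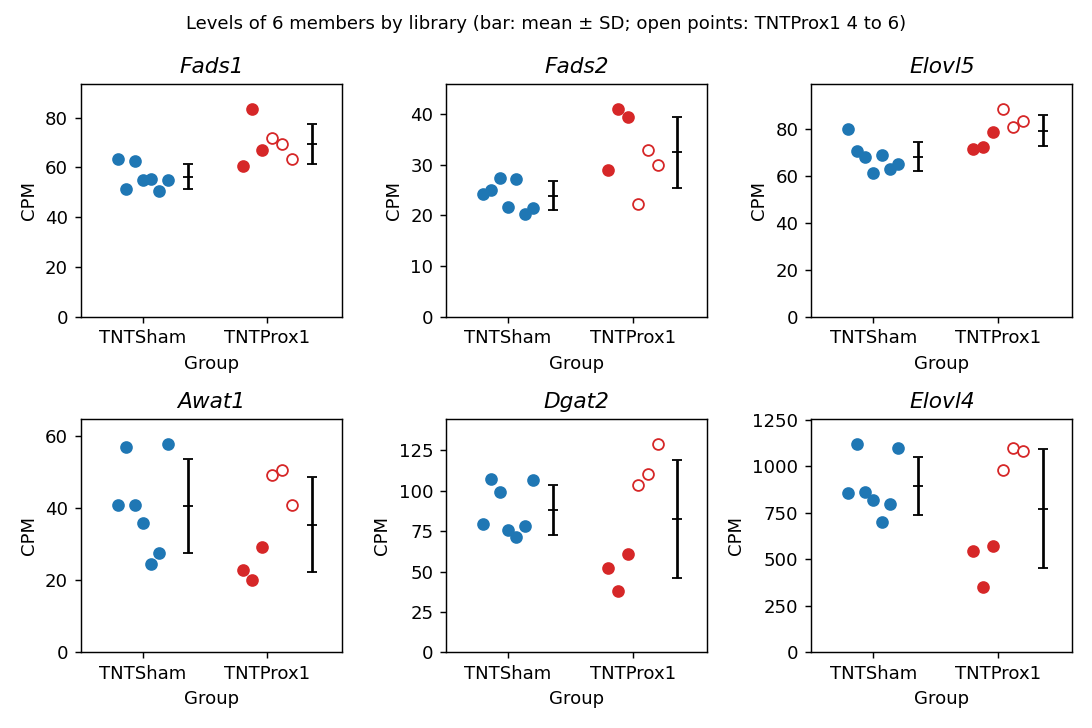
CPM (y axis, from 0) of 6 members in TNTSham and TNTProx1 (x axis), 1 point per library with mean ± SD beside it; open points are TNTProx1 4 to 6. Fads1 and Fads2 each have 5 of 6 TNTProx1 points above TNTSham, while for Dgat2 and Elovl4 the filled TNTProx1 points lie below all TNTSham points and the open ones do not.

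The remaining elongases make saturated and very long chains. Elovl4, which builds the ultra-long acyl chains of barrier ceramides, was the most abundant, at 700 to 1121 CPM in TNTSham (median 855). It was at 547, 352 and 574 CPM in TNTProx1 1 to 3, all below TNTSham, and at 981 to 1100 CPM in TNTProx1 4 to 6. The log2 difference was -0.21 ± 0.24 over 13 libraries and -0.87 ± 0.19 over 10 (SE; adjusted p = 0.752 and 0.0685 by edgeR), with an adjusted p from 0.0304 to 0.999 over all alternatives. Elovl7, an elongase of saturated acyl chains, ranged from 173 to 254 CPM in TNTSham, 80.0 to 157 CPM in TNTProx1 1 to 3 and 214 to 241 CPM in TNTProx1 4 to 6. Elovl3, an elongase of sebaceous glands and brown fat, ranged from 42.4 to 93.8 CPM in TNTSham, 25.1 to 42.7 CPM in TNTProx1 1 to 3 and 69.1 to 91.5 CPM in TNTProx1 4 to 6. Elovl1 ranged from 56.6 to 86.5 CPM in TNTSham and from 44.0 to 98.0 CPM in TNTProx1. Over 10 libraries these 4 were lower, at -0.27 for Elovl1 and between -0.83 and -0.92 for Elovl3, Elovl4 and Elovl7, and with Elovl5 the median of the 5 was -0.83.

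All 3 ceramide synthesis genes had negative values, with a median of -0.26 and 0 of 3 at an unadjusted p under 0.05. Cers4, a ceramide synthase of hair follicles and sebaceous glands, ranged from 152 to 320 CPM in TNTSham (median 225), from 93.8 to 173 CPM in TNTProx1 1 to 3 and from 198 to 225 CPM in TNTProx1 4 to 6. At -0.36 ± 0.20 in log2 (SE; adjusted p = 0.519 by edgeR) it had the most negative fold change of the 31 members over 13 libraries, and it was at -0.72 ± 0.23 with 10. Cers3, the synthase of ultra-long ceramides of the epidermis, was at 54.1, 15.9 and 29.3 CPM in TNTProx1 1 to 3 and 71.3 to 104 CPM in TNTProx1 4 to 6, against 50.9 to 78.7 CPM in TNTSham. TNTProx1 2 and 3 were below that range and TNTProx1 5 and 6 above it. Fa2h, the fatty acid 2-hydroxylase, ranged from 95.7 to 275 CPM in TNTSham and from 74.0 to 205 CPM in TNTProx1.

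Of the lipid handling genes, Mgst1, a membrane glutathione transferase used as a sebocyte marker, ranged from 54.4 to 126 CPM in TNTSham (median 84.3) and from 42.5 to 109 CPM in TNTProx1 (median 75.0), with a log2 difference of -0.13 over 13 libraries and -0.62 over 10. Fabp5, the epidermal fatty acid binding protein, was at 1518 CPM in TNTSham 1 and at 426 to 785 CPM in the other 6 TNTSham libraries. It was at 700, 164 and 268 CPM in TNTProx1 1 to 3 and at 1024 to 1393 CPM in TNTProx1 4 to 6. The fold change of Fabp5 in log2 was 0.10 ± 0.43, the largest SE of the 31 members (adjusted p = 0.940 by edgeR), and -0.97 ± 0.45 with 10 libraries. Plin2, which coats lipid droplets, ranged from 70.9 to 113 CPM in TNTSham and from 63.8 to 132 CPM in TNTProx1.

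The TNTProx1 libraries also differed among themselves. For 19 of 31 members TNTProx1 1 to 3 were all below TNTProx1 4 to 6, against 23.1% of all genes, and for 2, Acaca and Far1, all above, against 24.6%. Against the TNTSham range, TNTProx1 1 to 3 were all lower for Me1, Dgat2, Elovl4 and Elovl7 (5.80% of all genes) and all higher for Acaca and Fads2 (3.45% of all genes). With 10 libraries 25 of 31 members were lower, and 6 higher, at a median of -0.29, against 50.2% and 49.8% of all genes. That fit called 0 members and 0% of all genes, and the members' adjusted p ran from 0.0685 to 0.989. At an unadjusted p under 0.05 it had 12 members lower, against 12.1% of all genes, and 2 higher, Fads1 and Fads2, against 9.34% (21.4% in either direction).

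**Figure D4:**
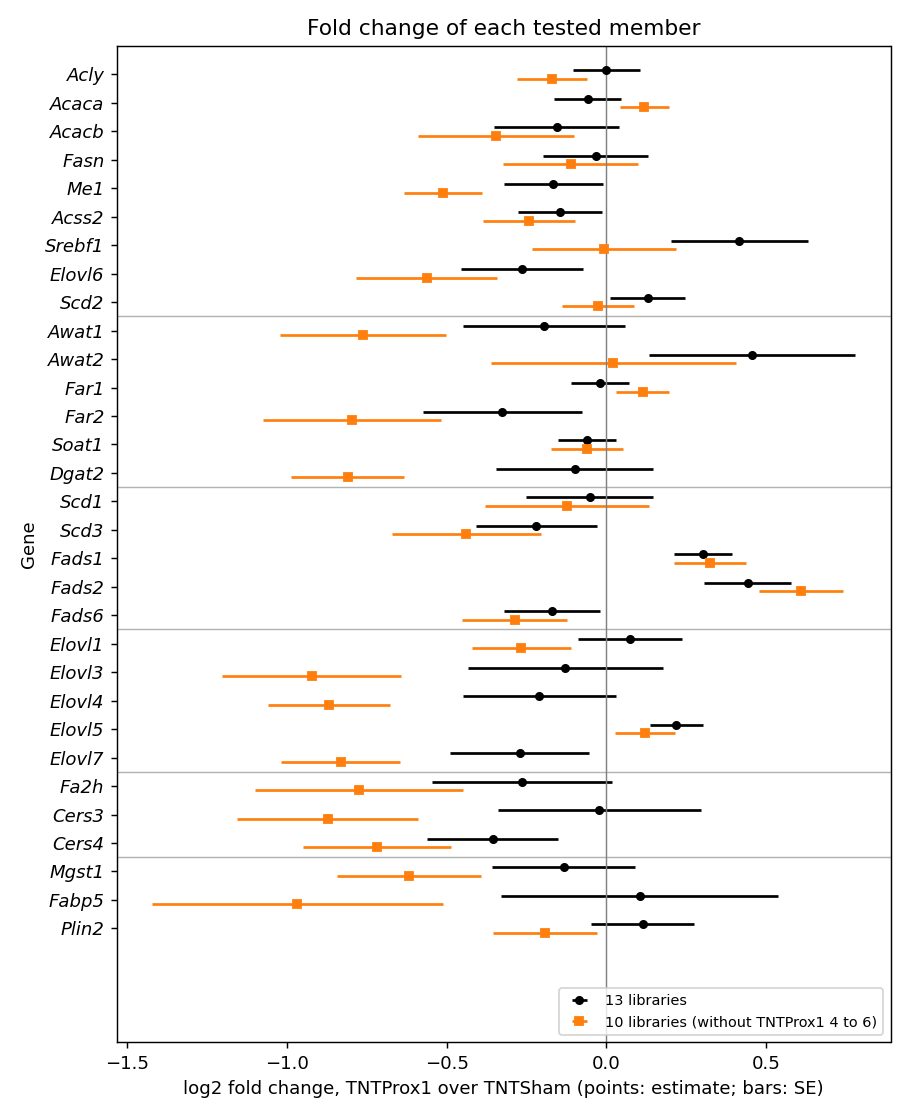
Log2 fold change of TNTProx1 over TNTSham (x axis) for each of the 31 tested members (y axis, grouped by role); points are estimates and bars are SE. Black circles use 13 libraries and orange squares the 10 without TNTProx1 4 to 6; the orange squares of Awat1, Far2, Dgat2, Elovl3, Elovl4, Elovl7, Fa2h, Cers3 and Cers4 lie between -0.72 and -0.92, and those of Fads1 and Fads2 at 0.32 and 0.61.

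Keratinocyte markers were low in TNTProx1 2 and 3, and differed between markers in TNTProx1 4 to 6. The 10 markers (Krt5, Krt14, Krt1, Krt10, Krtdap, Lor, Flg, Dsg1a, Ivl and Trp63) summed to 27830 to 42820 CPM in TNTSham, to 6121 to 31990 CPM in TNTProx1 1 to 3, lowest in TNTProx1 2, and to 30430 to 59780 CPM in TNTProx1 4 to 6. Krt1 and Krt10 make up most of these sums. The mean log2 level of the markers against the TNTSham mean was -0.20, -2.20, -0.66, -0.32, -0.19 and 0.58 in TNTProx1 1 to 6, and Lor, Flg and Ivl were below the TNTSham range in TNTProx1 4 and 5. Krt5 and Krt14 were above the TNTSham range in TNTProx1 4 to 6. The mean of the ceramide genes was -0.63, -1.38, -0.49, 0.17, 0.27 and 0.21 in TNTProx1 1 to 6, so it too was lowest in TNTProx1 2. The part of keratinocytes in the members' levels was not tested. TNTProx1 2, a library picked after its values were seen, was also the lowest TNTProx1 library for 15 of 31 members, against 19.8% of all genes. Of the markers 8 of 10 were lower over 13 libraries, and 10 of 10 over 10 libraries, at medians of -0.33 and -0.82. With a keratinocyte score as a covariate 14 members were higher and 17 lower, and the medians were -0.041 for the general genes and -0.031 for the wax and sterol ester genes. In that fit Fads1, Fads2 and Elovl5 were at 0.23, 0.34 and 0.27, and Elovl1 at 0.25. At an unadjusted p under 0.05 the fit had 4 members higher and 0 lower, against 4401 of 22876 genes in either direction. In bulk tissue, fewer cells of a type and less RNA per cell cannot be told apart.

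Skeletal muscle markers (6 genes) summed to 1141 to 3056 CPM in TNTSham and 496 to 1710 CPM in TNTProx1, and hair follicle markers (6 genes) to 298 to 1349 CPM and 249 to 976 CPM. Macrophage markers (5 genes) summed to 1092 to 1813 CPM and 1246 to 1937 CPM in the same order. The part of these tissues in the members' levels was not tested. Adipocyte markers were split evenly, with 5 of 10 higher and a median of -0.055, and with their score as a covariate the medians of the general and of the wax and sterol ester genes were -0.063 and -0.075.

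Within TNTSham, many members were highest in the same libraries, which were picked after their values were seen. TNTSham 2 and 7 were the 2 highest TNTSham libraries for 17 of 31 members, against 5.64% of all genes. These 17 were Acly, Acacb, Fasn, Acss2, Elovl6, Awat1, Far2, Dgat2, Scd1, Scd3, Fads6, Elovl3, Elovl4, Fa2h, Cers4, Mgst1 and Plin2. Awat2 was highest in TNTSham 2 and 1 instead, and Fads1 was at 51.2 and 54.9 CPM in TNTSham 2 and 7. Skeletal muscle markers were also highest on average in TNTSham 2 and 7, at 0.81 and 0.45 above the TNTSham mean in log2 units. So were the 10 sebocyte markers, 5 of them members, at 0.47 and 0.33. The 13 sebocyte genes outside the list were highest there too, at 0.38 and 0.21. Adipocyte markers were highest in TNTSham 2, at 0.69, and at 0.13 in TNTSham 7, below TNTSham 1 and 3. Hair follicle markers were highest in TNTSham 2, at 1.25, and at 0.23 in TNTSham 7, below TNTSham 3 and 6. The part of these tissues in the members' levels within TNTSham was not tested. The spread in TNTSham differed between members: the SD was 87.9 CPM around a TNTSham mean of 262 CPM for Far2, but 5.15 CPM around 116 CPM for the broadly expressed Far1.

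Other sebocyte genes outside the list stood lower in TNTProx1 in 10 of 13, at a median of -0.29, and in 12 of 13 with 10 libraries, at a median of -0.49. Krt79, a keratin of the sebaceous duct, was at 525 ± 198 CPM in the 7 TNTSham libraries and 333 ± 108 CPM in the 6 TNTProx1 libraries (mean ± SD), a difference of -0.66 ± 0.26 in log2 (SE; adjusted p = 0.312 by edgeR) and of -1.004 with 10 libraries. Krt79 was at 919 CPM in TNTSham 4, against 647 CPM in the next highest TNTSham library. Only 2 of 6 TNTProx1 libraries lay below its TNTSham range. Pparg, the transcription factor of sebocyte and fat cell differentiation, had 0.068 ± 0.12 (SE). At an unadjusted p under 0.05 there were 3 of the 13 lower and 0 higher, against 3.92% and 8.33% of all genes. With 10 libraries there were 8 lower, against 12.1%, and 0 passed the adjusted test in either fit.

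Regulators and acyl-CoA steps of the pathway were mixed, with 12 of 22 higher and 10 lower at a median of 0.048. With 10 libraries 6 were higher and 16 lower, at a median of -0.23. Mlxipl, the carbohydrate response factor ChREBP, differed by -0.71 ± 0.25 in log2 (SE; adjusted p = 0.248 by edgeR) at mean levels of 3.51 CPM in TNTSham and 2.14 CPM in TNTProx1, and by -0.52 with 10 libraries. Gpam, which starts glycerolipid synthesis, had -0.32 ± 0.12 (SE; adjusted p = 0.279 by edgeR) and -0.45 with 10 libraries. Barrier lipid genes were lower in 9 of 12 at a median of -0.085, and in 11 of 12 at a median of -0.70 with 10 libraries. Among them Smpd3, a sphingomyelinase, had 0.46 ± 0.19, and Aloxe3, an epidermal lipoxygenase, -0.46 ± 0.20 (SE; adjusted p = 0.344 and 0.381 by edgeR), and with 10 libraries they were at 0.13 and -0.69.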

How the data were processed

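Raw gene counts of the 13 libraries were used as deposited. The submitters' processing notes name fastp 0.20.1, HISAT2 2.2.1, featureCounts of Subread 2.0.2 and GRCm39. Annotation, strand setting and the counting of multiply aligned reads are not stated. Libraries were ribosome-depleted and stranded, per the labels' protocols, and total counts were 36.65 ± 6.32 M (SD, n = 7) for TNTSham and 40.44 ± 5.08 M (SD, n = 6) for TNTProx1. Symbols were matched by identifier for 52081 of 55357 genes from GENCODE M21, which also gave exon lengths.

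Genes were kept by filterByExpr (22876), scaled by TMM and compared with the quasi-likelihood F test of edgeR 4.0.16 under R 4.3.3, with group alone in the model. P-values were adjusted by Benjamini-Hochberg over all genes, with 0.05 as threshold. SE is the log2 fold change over the root of F. The fit was tested on simulated counts of 22876 genes for this comparison and recovered 10, 32, 39 and 42 of 50 genes changed 1.5, 2, 3 and 4-fold. It also called 6 unchanged genes.

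The members, role groups and lists were chosen with earlier results of these data known. Every member is accounted for; of each other pathway list the 2 members of smallest p are named, except 1 that is not reported here, and Pparg was named after its value was seen. Alternatives were DESeq2 1.42.0, its size factors, upper quartile scaling, 2 filters, 2 limma 3.58.1 fits, marker score covariates and libraries left out; a TEC share covariate was added after seeing the data.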

Additional observations from a re-analysis of the deposited data

Results flagged for a closer look

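In 62 groups (31 members in TNTSham and in TNTProx1), 2 libraries lay far from the others by Dixon's test at the 95% level, and chance gives about 1 in 20. The 2 found are thus no more than chance would give. Fabp5 was at 1518 CPM in TNTSham 1, against 785 CPM in the next highest TNTSham library. TNTSham 1 was also the library with Xist at 2095 CPM, against at most 2.01 CPM in the others. Without TNTSham 1 the log2 fold change of Fabp5 was 0.39, against 0.10 with all libraries. Acaca was at 115.6 CPM in TNTSham 7, against 125.5 CPM in the next lowest.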

How the results depend on the processing

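No paired analysis was possible because the labels give no replicate numbers shared between the groups. With DESeq2, DESeq2 size factors, upper quartile scaling, no low-count filter and at least 1 CPM in 6 libraries, all 31 tested members kept their direction and 0 passed. Over all genes the count called was 619 with DESeq2 (3.62% of genes with an adjusted p), 1 with no low-count filter, 573 with limma voom with quality weights (2.5%), 545 with the TEC share as covariate (2.38%) and 0 in the other settings with all libraries. Leaving out 1 library gave 0 to 589, with 589 without TNTProx1 1 and 34 without TNTSham 5, and 0 members passed in any of these fits. Limma voom called Fads2 (0.57, adjusted p = 0.0340) and Elovl7 (-0.72, adjusted p = 0.0460), and the TEC share fit called Me1 (-0.40), Dgat2 (-0.61), Elovl4 (-0.68) and Elovl7 (-0.67). The cause was not tested. The median of the wax and sterol ester genes was -0.41 with 10 libraries, -0.25 with limma voom and -0.34 with the TEC share, and that of the general genes -0.17, -0.10 and -0.13. With 1 library left out they ran from -0.146 to -0.039 and from -0.125 to -0.006. Some members changed sign, Srebf1 from 0.42 among them, the cause not tested. With adipocyte score as covariate these were Acly 0.006. With keratinocyte score as covariate these were Acly 0.092, Dgat2 0.11, Elovl3 0.071, Elovl4 0.001, Cers3 0.28. With limma voom with quality weights these were Acaca 0.048, Fasn 0.046, Far1 0.030, Soat1 0.020, Elovl1 -0.19, Fabp5 -0.82, Plin2 -0.037. With TNTProx1 4 to 6 left out these were Acaca 0.12, Srebf1 -0.008, Scd2 -0.027, Far1 0.11, Elovl1 -0.27, Fabp5 -0.97, Plin2 -0.19. With TEC share as covariate these were Acaca 0.032, Far1 0.061, Elovl1 -0.16, Fabp5 -0.66, Plin2 -0.094. With limma trend these were Fabp5 -0.15. With 1 library left out, values that crossed 0 ran from -0.050 to 0.057 for Acly, from -0.11 to 0.020 for Acaca, from -0.15 to 0.077 for Fasn, from -0.078 to 0.033 for Far1, from -0.27 to 0.048 for Dgat2, from -0.14 to 0.050 for Scd1, from -0.032 to 0.18 for Elovl1, from -0.31 to 0.024 for Elovl3, from -0.25 to 0.17 for Cers3, from -0.14 to 0.39 for Fabp5. In simulated counts 10 of 50 genes changed 1.5-fold were recovered, so differences of that size may be missed at this depth and spread.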

Other observations

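Genes of fatty acid oxidation, the opposite route, lay on both sides of 0. Of 11 tested genes, TNTProx1 had 5 higher and 6 lower, with a median in log2 of -0.064. Cpt2, the inner membrane carnitine palmitoyltransferase, was at 18.6 ± 3.38 CPM in the 7 TNTSham libraries and 24.8 ± 7.18 CPM in the 6 TNTProx1 libraries (mean ± SD). It differed by 0.41 ± 0.18 in log2 (SE; adjusted p = 0.356 by edgeR) and by 0.016 with 10 libraries. Cpt1b, the muscle form of the outer membrane enzyme, was at 10.8 ± 3.72 and 7.89 ± 1.39 CPM, a difference of -0.45 ± 0.21 in log2 (SE; adjusted p = 0.410 by edgeR). Skeletal muscle markers were lower in 5 of 6 in the same comparison, at a median of -0.60, and their part in the level of Cpt1b was not tested. With 10 libraries 9 of the 11 genes were lower, at a median of -0.18.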
